A study of Homo sapiens with 4 samples.

Results

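The comparison described here is COP1 knockdown in Huh7 cells, an established human line of hepatocellular carcinoma. Huh7 cells given 20 nM of an siRNA against COP1 (COP1-siRNA) were compared with Huh7 cells given the same dose of a control siRNA without a target (NC-siRNA), and RNA was taken 48 h after a lipid-based transfection. These are 2 of the 4 libraries of the series. The other 2 come from HepG2 cells, another established human liver tumour line, with the same siRNAs, dose and time, and they are used here only to set values side by side. Each condition had 1 library of polyadenylated, strand-specific RNA, so the differences below could not be checked against replicates and carry no p-values. The knockdown rests on 1 siRNA and the control on 1 siRNA.

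The values compared are TPM, the usual length-corrected measure of a transcript's share, a level relative to all other transcripts of the same library. A fold change is log2 of the TPM plus 1 with COP1-siRNA over the TPM plus 1 with NC-siRNA. The added 1 makes the change of weakly expressed genes look smaller than it is. Genes that reached 1 TPM in at least 1 of the Huh7 libraries were compared, 13000 in all, and a gene is called raised or lowered only where it passed 2-fold. The 2-fold limit is a limit of size and not a test. The files hold no read counts. The mean read coverage of a gene gives its depth only approximately, so no counting interval was computed. A sequencing depth ratio, the median of coverage over FPKM, was 5.51 with NC-siRNA and 6.23 with COP1-siRNA in Huh7, and 4.82 and 6.13 in HepG2. In Huh7 the library of the COP1-siRNA cells was 1.13 times as deep as its control. Lower levels of a transcript in all cells, and its loss from some of the cells, cannot be told apart in such bulk libraries.

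COP1 is an E3 ubiquitin ligase, an enzyme that marks other proteins for destruction by the proteasome. In mammalian cells it works within a larger ligase built on the cullin CUL4, the linker DDB1 and the partner DET1, and Tribbles proteins can bring substrates to it. Its substrates include the AP-1 factor c-JUN, the ETS factors ETV1, ETV4 and ETV5, the liver factor C/EBPα and p53. Because COP1 acts on proteins, the mRNA of a substrate need not change when COP1 is lost, whereas genes downstream of a substrate may.

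A 7-base sequence, AGCAGTC, recurred in the 3′ UTRs of the transcripts that fell, and it is shown first because a large part of the lowered genes carried it. The windows below are 25 bases of GENCODE 29 transcripts on GRCh38, read 5′ to 3′ on the strand of the transcript, with the 7 bases in capitals. They are given for genes with the largest falls in Huh7, and for SDC1 and PCDH17, which fell in Huh7 with little change in HepG2.
CLINT1, chr5:157786871-157786895, minus strand: tttgtttttAGCAGTCattatttac
CLINT1, chr5:157786571-157786595, minus strand: gagacctgtAGCAGTCaaagatttt
COX7A2, chr6:75237787-75237811, minus strand: caccaataaAGCAGTCtttaccatg
C11orf98, chr11:62662841-62662865, minus strand: ggcctctctAGCAGTCaactccatt
MRPL18, chr6:159798335-159798359, plus strand: tctaagaaaAGCAGTCatcaattat
GLT1D1, chr12:128983426-128983450, plus strand: ttattttcaAGCAGTCatggttcag
GLT1D1, chr12:128984149-128984173, plus strand: tgggtagaaAGCAGTCtgctttgag
TMEM208, chr16:67229205-67229229, plus strand: ggggccaaaAGCAGTCtgaggtatt
S1PR3, chr9:89003535-89003559, plus strand: tgaacccgtAGCAGTCtgtttacct
SDC1, chr2:20201907-20201931, minus strand: cctctttcaAGCAGTCgtgcctgtg
PCDH17, chr13:57725742-57725766, plus strand: tggatttctAGCAGTCatcacaggc
PCDH17, chr13:57728105-57728129, plus strand: tggtaattcAGCAGTCaggactcta
Outside the 7 bases the windows differ. The base after the site was A in 7 of them, T in 4 and G in SDC1.

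The targeted gene was lower with COP1-siRNA. COP1 (gene 64326, chromosome 1, 175944826 to 176209087, minus strand) had 19.7 TPM in the Huh7 control library and 6.18 TPM in the other. This left 31.4%, or −1.53 on the log2 scale. The mean read coverage of the gene went from 8.12 to 2.97, although the second library was the deeper one. Scaled for depth and taken as a plain ratio this was a log2 value of −1.62, while with 1 added to each value, which weighs on a coverage this low, it was −0.74. In HepG2, COP1 went from 26.9 to 16.1 TPM, a log2 change of −0.71. The hepatocyte identity of Huh7 held in both libraries. All 10 hepatocyte markers listed, among them albumin (ALB), alpha-fetoprotein (AFP) and HNF4A, passed 1 TPM in each, and their summed level was 20330 TPM in the control and 18123 TPM after knockdown. Their log2 fold changes lay between −0.38 and −0.02, with a median of −0.12. Of markers of other cell types, 3 of 8 leukocyte genes (CD68, CD14 and LYZ, 208 and 177 TPM when summed over the list), 1 of 6 endothelial genes (PECAM1) and 2 of 7 fibroblast genes (LUM and PDGFRA) passed 1 TPM. PTPRC, CD3E, HBB, CDH5, VWF and DCN were listed at 0 in both Huh7 libraries.

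In Huh7, 83 genes were raised past 2-fold by COP1-siRNA, 0.638% of the 13000 compared, and 58 were lowered, 0.446%. At 1.5-fold the numbers were 364 (2.8%) and 349 (2.68%). The median log2 fold change of all genes was −0.00, with a standard deviation of 0.30 across genes, and 90% of genes lay between −0.47 and 0.45. Most of the raised genes were not protein-coding. Of the 83, 28 were protein-coding (0.249% of 11265 such genes) and 39 were small RNA genes, whereas 45 of the 58 lowered genes were protein-coding (0.399%). Coverage of the same gene was used as a second reading of the same libraries, and 25 of the 28 raised and 40 of the 45 lowered protein-coding genes also changed at least 1.5-fold in the same direction in depth-scaled coverage. The accounts of raised and lowered genes below are of these, except where stated.

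**Figure D1:**
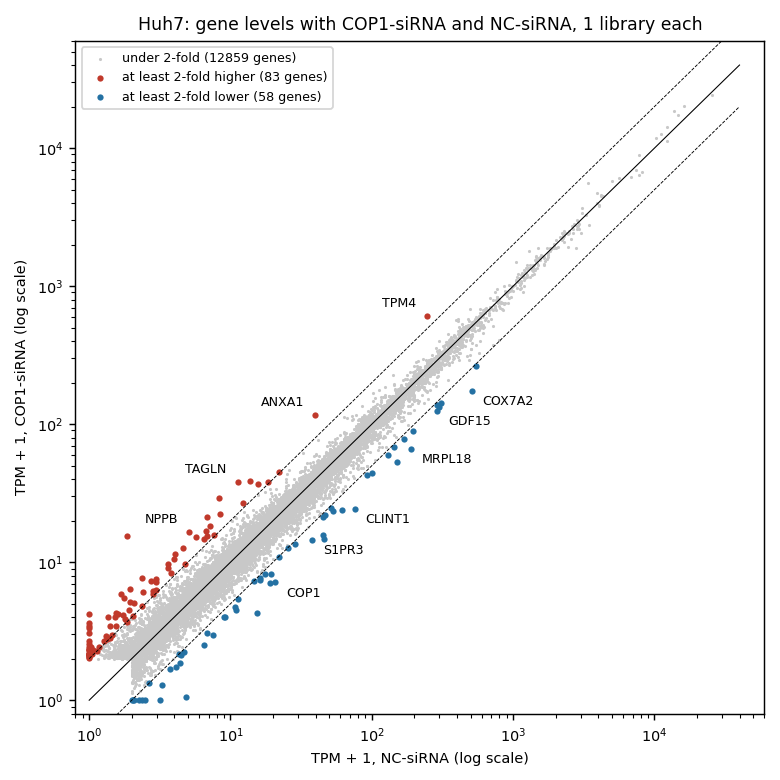
Each point is 1 of the 13000 genes compared in Huh7, with TPM plus 1 in the NC-siRNA library on the x axis and in the COP1-siRNA library on the y axis (both log scales, 1 library each); the solid line marks equal levels and the dashed lines 2-fold. The 83 raised genes (red) crowd at low TPM, with TPM4 and ANXA1 the exceptions at high level, while lowered genes (blue) such as COX7A2 and GDF15 lie far higher, between 124 and 507 TPM.

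The raised protein-coding genes held a group of actin-binding and contractile proteins. Transgelin (TAGLN, gene 6876, chromosome 11, 117199294 to 117207465), which binds and bundles actin filaments, went from 10.2 to 36.9 TPM, a log2 change of 1.76. Calponin 1 (CNN1, chromosome 19, 11538775 to 11550323), another actin-binding protein of smooth muscle, went from 1.96 to 6.54 TPM, or 1.35. The tropomyosin TPM4 (chromosome 19, 16067507 to 16103005), which lies along actin filaments, went from 244 to 607 TPM, or 1.31, at the highest level of any raised protein-coding gene. MYL9, a regulatory light chain of myosin, went from 17.6 to 36.8 TPM, a log2 change of 1.03. These were the 4 genes past 2-fold among the 18 compared from a list of 20 actin genes and targets of SRF and YAP, the factors that read out actin assembly and cell tension. Over all genes compared, 0.638% were raised past 2-fold. The list had no gene past 2-fold or 1.5-fold in the other direction, 15 of its 18 genes lay above 0, and its median was 0.28 against −0.00 for all genes. Its most abundant member did not follow: ACTB went from 7791 to 6399 TPM, a value of −0.28. The YAP targets CCN1, CCN2 and ANKRD1 had values of 0.37, −0.15 and 0.52, below either limit. This list and the other gene lists below were chosen with earlier results of these data known. Their counts and medians are therefore a description and no evidence on their own.

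Of all protein-coding genes, GBP1 (gene 2633, on the minus strand of chromosome 1, 89052319 to 89065208) rose the most, from 7.29 to 28.2 TPM, a log2 change of 1.82. It encodes a large GTPase that interferons induce. Other interferon-stimulated genes did not rise with it. Of 25 listed, 13 were compared, and GBP1 alone passed 1.5-fold upward. ISG15 went from 49.7 to 51.7 TPM (0.06), and GBP2 from 35.8 to 38.2 TPM (0.09). IFITM3 went from 161 to 104 TPM, a value of −0.64 that passed 1.5-fold downward. OAS1, OAS2, BST2, IFI27 and IFI44 were listed at 0 in both Huh7 libraries. The median of the 13 genes was 0.09. The class I antigen presentation genes, which interferons also raise, had a median of 0.08 over 9 genes, with none past 1.5-fold.

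Several raised genes encode secreted or cell surface proteins. NPPB (gene 4879, chromosome 1, 11857464 to 11858945), the precursor of the B-type natriuretic peptide, a hormone best known from heart muscle, went from 4.11 to 15.6 TPM, or 1.70. Tissue factor (F3, gene 2152, chromosome 1, 94529173 to 94541857), the receptor that starts blood clotting, went from 7.40 to 21.5 TPM, or 1.42. OLR1, a scavenger receptor for oxidised low-density lipoprotein, went from 6.20 to 17.2 TPM, or 1.34. GLIPR1, a secreted or membrane protein of the CAP family, went from 5.83 to 20.3 TPM, or 1.64. Each of these genes was at a low to moderate level in the control cells and at least 2.78 times as high by plain TPM with COP1-siRNA. PI3, which encodes the elastase inhibitor elafin, went from 21.0 to 43.7 TPM, or 1.02, and was chosen after its values were seen. Annexin A1 (ANXA1), a membrane-binding protein that limits inflammation, went from 38.7 to 115 TPM, or 1.55. Of the 14 annexin and S100 genes compared, ANXA1 alone passed 2-fold and ANXA3, from 101 to 168 TPM (0.72), passed 1.5-fold. The median of that list was 0.27, and 11 of the 14 lay above 0.

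The raised genes of metabolism each came from another pathway. CYP1B1 (gene 1545, chromosome 2, 38067509 to 38076151), a cytochrome P450 that oxidises steroids and foreign compounds, went from 12.9 to 37.9 TPM, or 1.49. ELOVL3, an elongase of long-chain fatty acids, went from 3.04 to 10.5 TPM, or 1.5. AKR1D1, a steroid reductase of bile acid synthesis, went from 1.75 to 6.27 TPM, or 1.40, and SLC7A7, the light chain of an exporter of basic amino acids, from 14.6 to 35.8 TPM, or 1.23. AKR1D1 was the 1 gene past 2-fold among 11 compared of bile acid synthesis and transport, whose median was −0.04. SLC7A7 was likewise the 1 gene past 2-fold among 23 of amino acid transport and the stress response, whose median was −0.01. CPT1B, the muscle form of the enzyme that brings fatty acids to mitochondria, went from 0.400 to 1.80 TPM and just passed 2-fold at 1.00, but stood at 0.60 in FPKM. It was the 1 gene past 2-fold among 19 of fatty acid oxidation, whose median was 0.02.

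FOSL1 (gene 8061, chromosome 11, 65892049 to 65900526), which encodes the AP-1 subunit FRA1, went from 5.45 to 13.8 TPM, or 1.2. It was the 1 of 11 AP-1 genes compared that passed 2-fold. BATF3 (5.80 to 9.21 TPM, 0.59) passed 1.5-fold and FOSL2 (3.55 to 5.52 TPM, 0.52) did not. In depth-scaled coverage BATF3 stood at 0.39 with 1 added and at 0.72 as a plain ratio. The mRNA of the COP1 substrate c-JUN (JUN) went from 69.0 to 62.8 TPM, a value of −0.13. JUNB and JUND had values of −0.05 and −0.32, FOS −0.23, and the median of the list was −0.05. TRIM29, a protein of the tripartite motif family, rose from 1.08 to 4.10 TPM, or 1.29.

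A pair of the 15 largest rises by the rule were read-through genes, in which transcription runs from one gene into the next. Each overlaps both of its component genes on the same strand, and how reads were divided between overlapping genes is not known. BCL2L2-PABPN1 went from 0.947 to 5.42 TPM (1.72) and FMC1-LUC7L2 from 1.36 to 6.70 TPM (1.71). Summed with their component genes the levels went from 132 to 171 TPM, or 0.37, and from 88.8 to 93.6 TPM, or 0.08. The highest value of any gene in Huh7, 3.05 for BLOC1S5-TXNDC5, was of the same kind: with its components the sum went from 292 to 287 TPM, or −0.03. MSANTD3-TMEFF1 (1.48) and HNRNPUL2-BSCL2 (1.35) had sums at 0.05 and 0.00, and the lowered URGCP-MRPS24 (−1.24) a sum at 0.07. None of the 6 sums passed 1.5-fold, so these 6 calls are uncertain. The genes in this paragraph other than the first pair were chosen after their values were seen.

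A further 3 raised protein-coding genes, named here after their values were seen, had TPM past 2-fold without a matching change in coverage. These were the LIM-domain protein FHL2 (3.61 to 11.6 TPM), the glycosylation factor ALG14 (5.69 to 15.7 TPM) and the myosin light chain MYL5 (0.723 to 3.17 TPM), and their direction is uncertain. Long non-coding RNA genes were divided, with 11 of 756 raised (1.46%) and 6 lowered (0.794%). Of the 11 raised ones, 2 reached 5 TPM in either library.

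**Figure D2:**
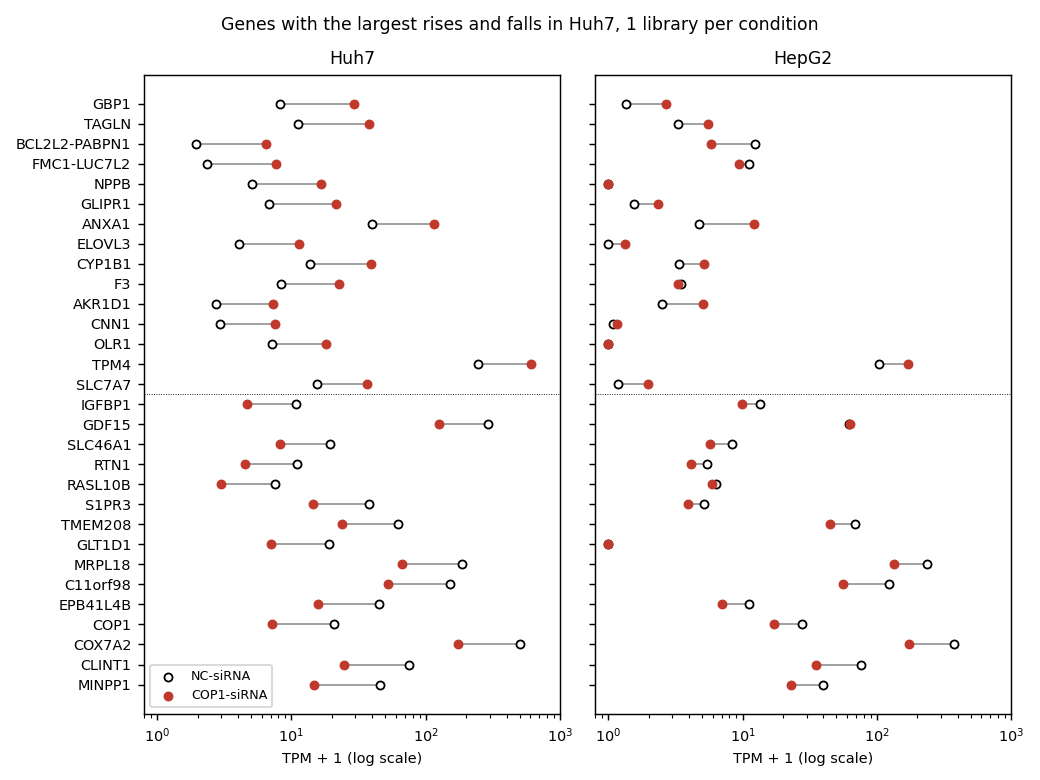
TPM plus 1 (x axis, log scale) of the 15 protein-coding genes with the highest and the 15 with the lowest change in Huh7 whose coverage moved the same way, with NC-siRNA (open) and COP1-siRNA (red) in Huh7 (left) and HepG2 (right), 1 library per point. The pairs are wide apart in Huh7 by construction; in HepG2 they are wide for ANXA1, CLINT1 and COX7A2, nearly on top of each other for GDF15, F3 and RASL10B, and at 0 TPM for NPPB, OLR1 and GLT1D1.

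Among the lowered genes, MINPP1 (gene 9562, chromosome 10, 87504466 to 87553461), a phosphatase of inositol polyphosphates, had the lowest value of any protein-coding gene. It went from 44.9 to 13.8 TPM, a log2 change of −1.64. In depth-scaled coverage the value was −0.78 with 1 added and −1.67 as a plain ratio. CLINT1 (chromosome 5, 157785747 to 157859145), which links clathrin to vesicles of the trans-Golgi network and endosomes, went from 74.5 to 23.5 TPM, or −1.63. EPB41L4B, a FERM-domain protein of the cell cortex, went from 44.3 to 14.8 TPM, or −1.52, and TMEM208, a protein of the endoplasmic reticulum, from 60.7 to 22.9 TPM, or −1.37. CLINT1 stood alone in its pathway: of 22 clathrin and endosome genes compared, it was the only one past 1.5-fold, and their median was −0.02.

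Mitochondrial proteins were lowered singly and not as a class. COX7A2, a cytochrome c oxidase subunit, fell from 507 to 173 TPM (−1.54), and the other 10 subunits compared stayed under 1.5-fold, with a list median of −0.00. MRPL18 of the large mitochondrial ribosomal subunit went from 187 to 65.1 TPM (−1.51). Of the 77 mitochondrial ribosomal genes compared, MRPL42 (−0.83) also passed 1.5-fold downward, and 51 lay above 0, with a median of 0.05. MRPL57 passed 2-fold in TPM, from 92.2 to 41.6, but its coverage went from 101 to 128, so it is uncertain. BOLA3, a factor of iron-sulfur cluster assembly in mitochondria, went from 169 to 76.6 TPM (−1.13), as the only one of 18 such genes past 1.5-fold. TIMM23, a channel of the inner membrane import machinery, went from 129 to 59.1 TPM (−1.11) and was chosen after its values were seen.

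Lowered genes of signalling and the cell surface were S1PR3, RASL10B, RASD1, SDC1 and PCDH17. S1PR3 (gene 1903, chromosome 9, 88991468 to 89005155), a receptor for the lipid sphingosine-1-phosphate, went from 36.6 to 13.6 TPM, or −1.37. Syndecan 1 (SDC1, gene 6382, chromosome 2, 20200797 to 20225433), a heparan sulfate proteoglycan of the cell surface, went from 99.0 to 43.2 TPM, or −1.18. The protocadherin PCDH17 went from 8.03 to 2.98 TPM, or −1.18. Both Ras-related small GTPases fell, RASL10B from 6.52 to 1.99 TPM (−1.33) and RASD1 from 44.1 to 20.2 TPM (−1.09). Chosen after their values were seen, 2 members of death receptor signalling also fell: the adaptor FADD from 51.9 to 22.7 TPM (−1.16) and the receptor TNFRSF21 from 142 to 67.1 TPM (−1.07).

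Among secreted proteins, GDF15 (gene 9518, chromosome 19, 18382170 to 18389176), a cytokine that cells release under stress, went from 290 to 124 TPM, or −1.21. The microRNA gene MIR3189 lies within it on the same strand. IGFBP1, which liver cells secrete to bind insulin-like growth factors, went from 9.80 to 3.71 TPM, or −1.2. SLC46A1, a proton-coupled folate transporter, went from 18.2 to 7.17 TPM, or −1.23. RTN1, a reticulon of the endoplasmic reticulum, went from 9.98 to 3.52 TPM, or −1.28, and GLT1D1, a glycosyltransferase-like protein, from 18.0 to 6.06 TPM, or −1.43. C11orf98, which overlaps LBHD1 on the same strand, went from 151 to 51.8 TPM, or −1.52. High-level genes were also among the lowered ones, here chosen after their values were seen. HIF1A, the oxygen-regulated subunit of the hypoxia factor, went from 300 to 132 TPM (−1.18), SEPTIN2, a cytoskeletal GTPase, from 288 to 137 TPM (−1.07), and TALDO1, an enzyme of the pentose phosphate pathway, from 546 to 264 TPM (−1.04).

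Described list by list, the largest shift downward was that of the ETS factors and the feedback genes of ERK signalling. The list holds mRNAs of ETS factors, among them the ETV factors that COP1 degrades, and feedback genes of the RAS-ERK pathway. The activity of the pathway and of the ETV proteins was not measured. Over 14 genes the median was −0.31, against −0.00 for all genes, and 12 lay below 0. In FPKM the median was −0.20 and that of the liver transcription factors, at −0.21, was the lower one. No gene passed 2-fold, and 3 passed 1.5-fold downward: ETV4 (22.1 to 11.7 TPM, −0.86), the ERK phosphatase DUSP6 (54.5 to 32.0 TPM, −0.75) and the pathway inhibitor SPRY4 (17.5 to 10.6 TPM, −0.67). ETV5 (−0.46) and ETV1 (−0.44) lay in the same direction without passing either limit. ETS2 stood at 33.1 and 34.1 TPM, a value of 0.04. In HepG2 the same 3 genes stood at −0.16, −0.00 and 0.10, and the list at a median of 0.06 over 14 genes.

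The liver transcription factors had a median of −0.27 over 19 genes, of which 15 lay below 0. NR0B2, a repressor that bile acids induce, passed 1.5-fold (5.80 to 3.01 TPM, −0.76). In depth-scaled coverage it stood at −0.41 with 1 added and at −0.86 as a plain ratio. FOXA3 (52.3 to 35.4 TPM, −0.55), PROX1 (42.6 to 30.3 TPM, −0.48) and CEBPA (169 to 122 TPM, −0.47) had the next values, none past 1.5-fold. HNF4A stood at −0.13. The proteins that such factors drive moved less: 24 secreted liver proteins had a median of −0.11, none past 1.5-fold, with ALB from 8117 to 6683 TPM (−0.28). In HepG2 the factors had a median of 0.08, and the secreted proteins one of 0.35, with the fibrinogen chains FGA, FGB and FGG past 2-fold upward there at 1.09, 1.05 and 1.04. In Huh7 those chains stood at −0.10, −0.03 and 0.09, with levels of 1577 to 2461 TPM in the control cells.

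Most of the listed genes of lipid synthesis lay slightly below 0 in Huh7. The 21 genes of cholesterol synthesis and uptake had a median of −0.21, 20 of them below 0 and none past 1.5-fold. HMGCS1, an early enzyme of the pathway, went from 350 to 279 TPM (−0.33) and IDI1 from 235 to 177 TPM (−0.41). Lipogenesis and lipid droplet genes had a median of −0.14 over 21 genes. FASN, the fatty acid synthase, went from 248 to 202 TPM (−0.30), SCD from 758 to 674 TPM (−0.17), and the droplet coat protein PLIN2 from 486 to 490 TPM (0.01). CIDEC, which fuses lipid droplets, was the only gene of the list past 1.5-fold, from 5.62 to 9.91 TPM (0.72). In HepG2 the cholesterol list had a median of −0.05 and the lipogenesis list one of 0.04. CIDEC passed 2-fold there, from 1.17 to 4.16 TPM (1.25). Outside these lists, ELOVL3 (described above) and CIDEB rose past 2-fold in Huh7. CIDEB, chosen after its values were seen, went from 1.85 to 5.16 TPM (1.11), and from 3.62 to 2.59 TPM in HepG2 (−0.36).

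NF-kB targets had a median of 0.21 over 17 genes, with 13 above 0. BIRC3, an inhibitor of apoptosis (2.86 to 5.45 TPM, 0.74), and the NF-kB subunit RELB (14.05 to 22.0 TPM, 0.61) passed 1.5-fold upward, and LTB (1.59 to 0.575 TPM, −0.72) passed it downward. The chemokine genes had values on both sides, with CXCL8 at 0.28 (195 to 237 TPM) and CCL20 at −0.25 (664 to 559 TPM). In HepG2 the list median was 0.34 over 13 genes.

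Other lists were near the median of all genes. The 30 cell cycle and replication genes had a median of −0.03 and none past 1.5-fold. For the 16 p53 targets compared the median was 0.06, with GLIPR1 raised, GDF15 lowered, and CDKN1A and MDM2 at 0.07 and −0.08. Huh7 is known to carry a mutated p53 and HepG2 a normal one. Medians of 0.03 for stem and progenitor markers, 0.11 for metallothioneins and iron genes, −0.00 for matrix and adhesion and −0.03 for protein palmitoylation had no gene past 2-fold. Single members past 1.5-fold were SALL4 (0.60, from 0.613 to 1.45 TPM), MT1E (0.68), ZDHHC16 (0.59) and the lowered palmitoyltransferase ZDHHC7 (−0.93). The spindle list had a median of 0.04, with MZT1 (−0.87) past 1.5-fold. Within the COP1 ligase list of 10 genes, the median was −0.02. COP1 itself was the 1 gene past 2-fold, CUL4B (28.6 to 17.8 TPM, −0.66) passed 1.5-fold downward, and UBE2E2 (0.502 to 1.32 TPM, 0.63) upward. The low-level SALL4 and UBE2E2 stood at 0.16 and 0.06 in depth-scaled coverage with 1 added. DDB1, TRIB1 and TRIB3 stood at −0.03, −0.05 and −0.01, and DET1 was under 1 TPM in both Huh7 libraries.

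**Figure D3:**
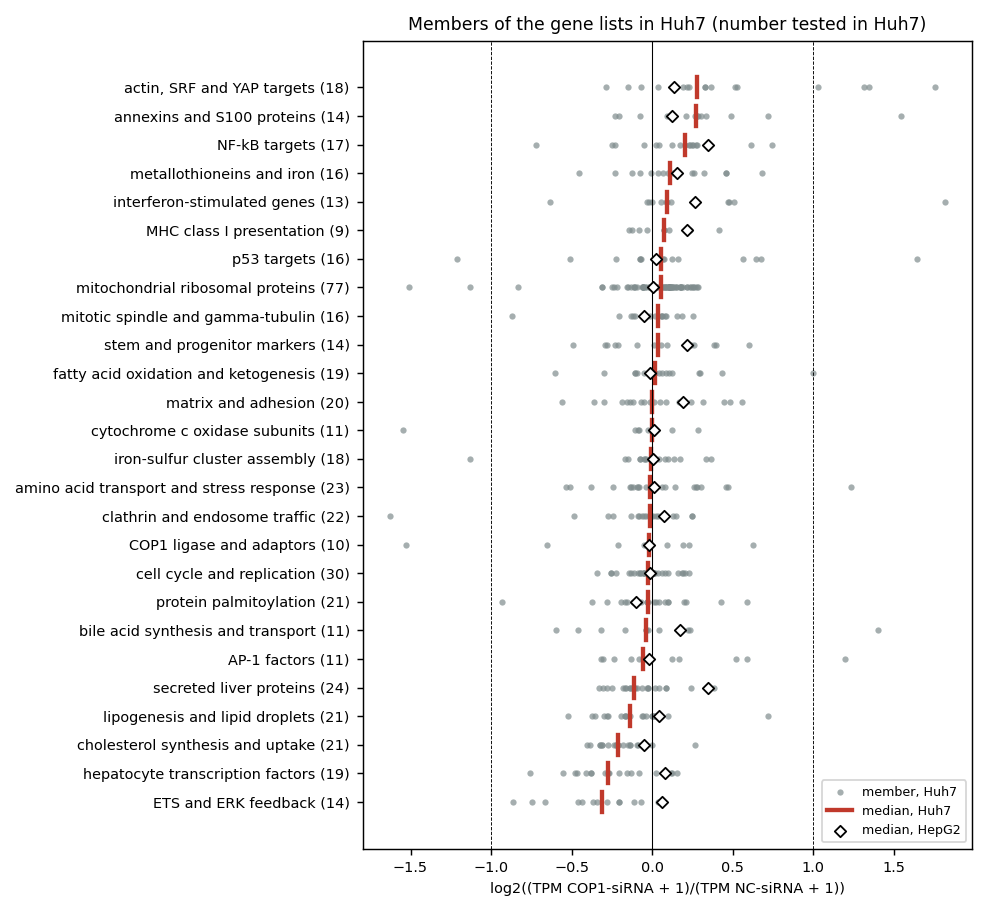
Log2 fold change in Huh7 (x axis) of the compared members of 26 gene lists (grey points, number of genes in brackets), with the list median in Huh7 (red bar) and in HepG2 (diamond); dashed lines mark 2-fold. The actin list lies furthest to the right with a median of 0.28 and the ETS and ERK feedback list furthest to the left at −0.31, and most single points beyond 2-fold stand alone in their list. The lists were chosen with earlier results of these data known, which bears on such a pattern.

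The direction of a list median depends on the scaling where the median is small. Under 5 other scalings or pseudocounts, 16 of the 26 medians kept their sign and 10 did not, and those 10 were between −0.05 and −0.00 to begin with. The median of all genes itself moved to at most 0.05. The ETS and ERK list lay 0.25 to 0.33 below it, the liver factors 0.23 to 0.27 below and cholesterol genes 0.20 to 0.21 below, while the actin list lay 0.28 to 0.32 above.

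Most genes lowered in Huh7 also lay below 0 in HepG2, and the raised genes were divided. Of the 25 raised protein-coding genes, 18 reached 1 TPM in a HepG2 library. Of these, 12 were above 0 there, 3 past 2-fold and a further 8 past 1.5-fold, with a median of 0.61. In the other direction 4 of the 18 passed 1.2-fold, 2 of them past 2-fold. The 18 include read-through genes, whose calls are uncertain. The 3 past 2-fold upward in HepG2 were ANXA1 (3.77 to 11.1 TPM, 1.34), AKR1D1 (1.52 to 4.12 TPM, 1.02) and MSANTD3-TMEFF1 (1.12, but −0.22 when summed with its components). BCL2L2-PABPN1 is among the 2 past 2-fold the other way (−1.10, but 0.05 when summed). Of the 40 lowered genes, 39 were compared in HepG2, 36 were below 0 there, 4 were past 2-fold and a further 19 past 1.5-fold, and 0 passed 2-fold in the other direction. Their median in HepG2 was −0.62, against −1.18 in Huh7. The 4 past 2-fold in HepG2 were C11orf98 (−1.14), CLINT1 (−1.12), COX7A2 (−1.10) and TMEM65 (−1.04). TMEM65 stood at −1.19 in Huh7 and is named after its values were seen. Over all 14456 genes compared in HepG2, 0.54% were raised and 0.394% lowered past 2-fold, and 2.56% and 1.87% past 1.5-fold. The difference in size between the lines could not be tested with 1 library per condition, and COP1 itself was left at a higher share in HepG2.

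Several raised genes lay above 0 at lower levels in HepG2. The actin genes TAGLN (2.32 to 4.53 TPM, 0.74), TPM4 (103 to 170 TPM, 0.72) and MYL9 (1.07 to 2.18 TPM, 0.62) each passed 1.5-fold there but not 2-fold. So did CYP1B1 (2.39 to 4.15 TPM, 0.60) and FOSL1 (2.95 to 5.76 TPM, 0.78). GLIPR1 went from 0.554 to 1.33 TPM (0.59) and GBP1 from 0.352 to 1.70 TPM, a value of 1.00. At these levels the added 1 takes up much of the difference. By plain TPM, GBP1 was 4.82 times as high in HepG2 and 3.87 times in Huh7, the reverse of the order on the log2 scale with 1 added. For the lowered genes, MINPP1 stood at −0.79 in HepG2, EPB41L4B at −0.66, TMEM208 at −0.62 and SLC46A1 at −0.55, each a smaller value than in Huh7. S1PR3 (−0.38), RTN1 (−0.40) and IGFBP1 (−0.43) lay between the 1.2-fold and 1.5-fold limits there.

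Some genes past 2-fold in Huh7 were expressed in HepG2 and changed there by less than 1.2-fold. Over all gene classes 29 genes met this, 18 raised and 11 lowered, and among protein-coding genes with matching coverage they were 2 raised and 6 lowered. F3 stood at 2.47 and 2.32 TPM in HepG2 (−0.06), against its rise from 7.40 TPM in Huh7. GDF15 stood at 61.2 and 62.2 TPM (0.02), and SDC1 at 29.4 and 25.1 TPM (−0.22). PCDH17 (1.92 and 2.21 TPM, 0.13), RASD1 (2.22 and 2.48 TPM, 0.12) and RASL10B (5.31 and 4.93 TPM, −0.09) were at low levels in HepG2. The remaining 2, the read-through FMC1-LUC7L2 (−0.25) and ASDURF (−0.14), overlap other genes on the same strand. The 6 genes other than this pair all had lower TPM in HepG2 control cells than in Huh7 control cells.

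Other genes past 2-fold in Huh7 were under 1 TPM in both HepG2 libraries. This held for 7 of the 25 raised protein-coding genes, namely NPPB, OLR1, ELOVL3, CNN1, TRIM29, SLC7A7 and PI3, and for 1 lowered gene, GLT1D1. NPPB, OLR1 and GLT1D1 were listed at 0 TPM in HepG2 with either siRNA. CNN1 stood at 0.0842 and 0.159 TPM there. SLC7A7 went from 0.189 to 0.968 TPM in HepG2, a log2 value of 0.73, in the same direction as in Huh7, and by plain TPM this was 5.13 times as high against 2.45 times in Huh7. PI3 was listed at 0 and at 0.526 TPM (0.61), ELOVL3 at 0 and 0.343 TPM (0.43), and TRIM29 at 0 and 0.209 TPM (0.27). These values rest on very low levels.

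**Figure D4:**
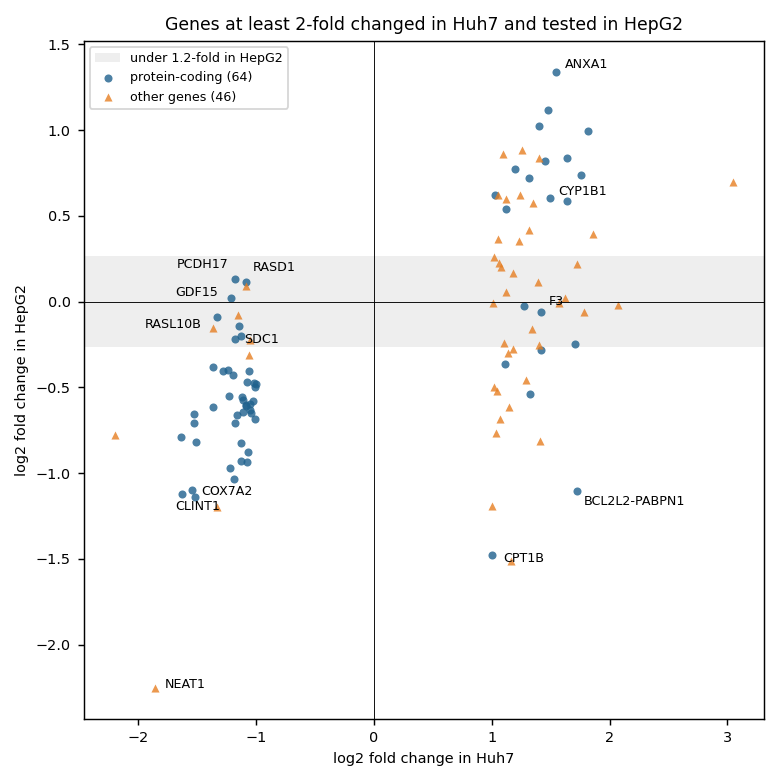
Log2 fold change in Huh7 (x axis) and in HepG2 (y axis) of the 110 genes past 2-fold in Huh7 that were compared in HepG2, protein-coding genes as circles and other genes as triangles; the grey band marks less than 1.2-fold in HepG2. Lowered protein-coding genes lie mostly below 0 in HepG2, with GDF15, PCDH17, RASD1, RASL10B and SDC1 in the band, while raised genes spread from −1.51 to 1.34.

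Small RNA genes made up a share of the raised genes well above the background. Of 276 small RNA genes compared in Huh7, 39 were raised, 14.1%, and 6 were lowered, 2.17%. The raised ones comprised 22 small nucleolar RNAs, 16 microRNA genes and 1 transfer RNA gene, and 37 of the 39 lie inside a host gene on the same strand. Their levels were low, with a median of 2.45 TPM in the higher library, and 12 were listed at 0 with NC-siRNA. The bases aligned to such a gene had a median of 85.0 with NC-siRNA and 814 with COP1-siRNA. The largest named by the rule were SNORA22B within CCT6A (0 and 2.63 TPM), MIR6746 within FADS3 (0.675 and 4.87 TPM) and MIR4745 within PTBP1 (0 and 2.45 TPM). In HepG2 the class went the other way, with 18 raised and 30 lowered of 351, and class medians of 0.30 in Huh7 and −0.08 in HepG2. The libraries were selected for polyadenylated RNA, which mature small nucleolar RNAs and microRNAs lack, and the part of the host genes in these values was not tested. VTRNA1-3, a short vault RNA, had the lowest value of any gene, from 3.82 to 0.0467 TPM (−2.20). NEAT1, a nuclear long non-coding RNA, went from 14.4 to 3.25 TPM while its coverage went from 6.56 to 10.3, so its direction is uncertain.

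The site AGCAGTC of the windows above was present in the 3′ UTR of 1041 of 11194 genes with an annotated 3′ UTR, 9.30%. The counts of the site here and below are over all such protein-coding genes, also those whose coverage did not follow. Among genes lowered past 2-fold the site was in 27 of 44 (61.4%). Among those lowered between 1.5-fold and 2-fold it was in 76 of 224 (33.9%). It was in 934 of 10741 genes under 1.5-fold (8.70%), in 3 of 157 raised between 1.5-fold and 2-fold (1.91%) and in 1 of 28 raised past 2-fold (3.57%). The share with the site was thus highest among the lowered genes and under the background among the raised ones. As the 7 bases were picked from these same libraries, the shares and the medians that follow are a description and no evidence on their own. The median log2 fold change was −0.13 with the site and 0.00 without it, a difference of −0.14, and 67.9% of genes with the site lay below 0 against 49.5% of the others. In genes with short, middle and long 3′ UTRs the difference was −0.19, −0.14 and −0.11. In HepG2 the difference was −0.09.

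**Figure D5:**
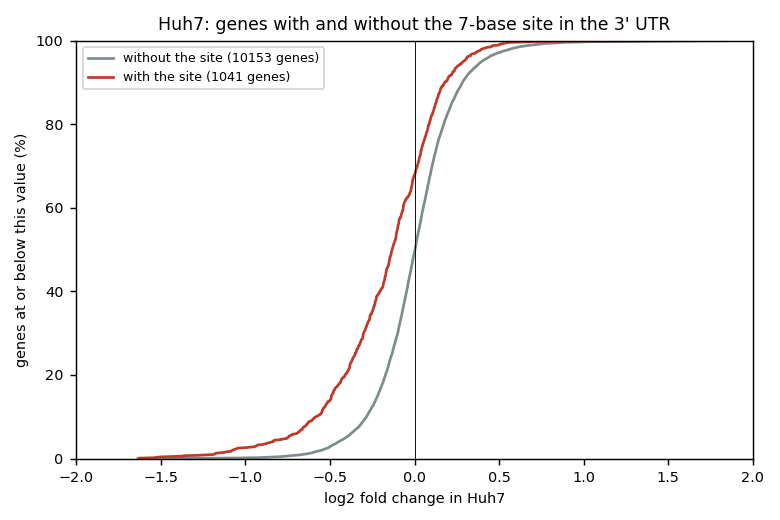
Cumulative share of genes (y axis, percent) at or below a log2 fold change in Huh7 (x axis), for the 1041 genes with the 7-base site in the 3′ UTR (red) and the 10153 without it (grey). The red curve lies to the left over most of its range and crosses 0 at 67.9%, the grey curve at 49.5%.

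The share of lowered genes was higher with more sites, while the base after the site gave no single order. Of 10153 genes without the site, 17 were lowered past 2-fold (0.167%). With 1 site this was 19 of 916 genes (2.07%), and with 2 or more it was 8 of 125 (6.40%), CLINT1, GLT1D1, SLC46A1, PCDH17, FADD, MMGT1, SEPTIN2 and CPEB4 being the 8. The last 4 are named after their values were seen. Where A followed the site, as in CLINT1, C11orf98 and MRPL18, the median of 385 genes was −0.18 and 15 of them were lowered (3.90%). Where C, G or T followed, the medians were −0.10 (315 genes), −0.11 (50 genes) and −0.12 (380 genes), and the lowered shares were 1.27%, 4% (2 genes) and 2.63%. A gene with several sites can count under more than 1 base, as GLT1D1 does under A and T. All 8 lowered genes with 2 or more sites have a copy followed by A, so base and number of sites are mixed here. In HepG2 the medians were −0.11 with A, −0.07 with C, −0.11 with G and −0.06 with T. Whether these steps exceed the spread between replicates cannot be said without replicates.

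Lowered genes without the site were COP1, MINPP1, EPB41L4B, RASL10B, GDF15, IGFBP1, RASD1, TIMM23 and 9 others. S1PR3 holds it in the transcript used but not in its longest annotated 3′ UTR. Of the lowered genes with the site, 26 were compared in HepG2, with a median of −0.62 there and 17 past 1.5-fold downward. Of those without it, 16 were compared, with a median of −0.53 and 6 past 1.5-fold. Their Huh7 medians were alike, −1.14 and −1.16. Of 6 lowered genes with an annotated 3′ UTR and less than 1.2-fold change in HepG2, SDC1 and PCDH17 held the site, and GDF15, RASD1, RASL10B and MRPL57 did not. No mature human microRNA among 2370 in the RefSeq table has the seed GACUGCU that would pair with AGCAGTC. Only this seed was looked up, and a cause of the falls was not tested.

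Promoter letters were searched in 300 bases per gene, 250 before and 50 after the start, from RefSeq on GRCh38.p14. Such a window was on hand for 9365 genes, among them 16 raised and 37 lowered. These include genes whose coverage did not follow, such as ALG14 and MYL5, whose direction is uncertain. Motifs of factors in the COP1 and interferon pathways were searched on both strands: AP-1 (TGANTCA), CRE (TGACGNCA), ETS (CGGAAG), NF-kB (GGGNNTTCC) and the interferon response element (TTTC, any 2 bases and TTTC again). The windows shown are those of raised genes described above whose coverage followed, except CIDEB. They are on the strand of the gene, with the motif in capitals.
F3, AP-1, chr1:94541966-94541992: gtggcgcggtTGAATCActggggtgag
F3, AP-1, chr1:94541953-94541979: atcactggggTGAGTCAtcccttgcag
GBP1, NF-kB, on the other strand, chr1:89065252-89065280: tcatcaatgaGGAAATCCCagccctacaa
GBP1, interferon response element, chr1:89065316-89065345: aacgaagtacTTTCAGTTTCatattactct
SLC7A7, interferon response element, chr14:22819782-22819811: gttttcctgtTTTCCATTTCagtccccgtt
The ETS letters were in 2 of 16 raised promoters (12.5%), ALG14 and CIDEB. They were in 13 of 37 lowered ones (35.1%) and in 35.2% of all. For genes raised past 1.5-fold the share was 26 of 146 (17.8%). The AP-1 letters were in 1 of 16 raised promoters (6.25%), in 13 of 146 past 1.5-fold (8.90%), in 3 of 37 lowered (8.11%) and in 4.18% of all. The interferon letters were in 2 of 16 raised promoters (12.5%) against 2.55% of all, but in 2 of 146 past 1.5-fold (1.37%). NF-kB letters were in 2 of 16 raised promoters (12.5%), GBP1 and MYL5, and in 8.28% of all. CRE letters were in 1 of 16 (6.25%), MYL5, and in 6.001% of all. With so few raised promoters, 1 gene moves these shares by 6.25 percentage points.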

How the data were processed

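RNA of Huh7 and HepG2 cells was taken 48 h after transfection with 20 nM of NC-siRNA or COP1-siRNA, and each of the 4 conditions had 1 library. Groups were taken from the sample labels. The authors deposited, for each library, a table of genes with 3 values. The TPM values deposited by the authors are scaled to a fixed sum within a library. The FPKM values deposited by the authors are scaled to gene length and library size. The coverage deposited by the authors is the mean number of reads over the bases of a gene and is not scaled for depth. The submitters' processing notes name FastQC 0.11.7, Trimmomatic 0.38, HISAT2 2.1.0, StringTie 2.1.3b, edgeR and GRCh38, without saying how each was set. The tables hold no counts, so no count model was run and no interval or detection limit could be given.

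TPM was summed per gene number (49 numbers were on several lines), and log2((TPM + 1)/(TPM + 1)) was taken between COP1-siRNA and NC-siRNA for genes of at least 1 TPM in either library. The limits were 2-fold and 1.5-fold, with under 1.2-fold as little changed. Depth-scaled coverage was the coverage over the library's median ratio of coverage to FPKM. Of 46427 gene numbers, 96.3% matched RefSeq on GRCh38, with a start no more than 1 kb away for 93.1% of them. The handling of reads from overlapping genes is not given in the sources used here. The 3′ UTRs came from GENCODE 29, 1 transcript per gene. Promoters and microRNAs came from RefSeq.

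The genes named were the 15 highest and 15 lowest protein-coding changes with at least 5 TPM and coverage moving the same way, list members past 2-fold and up to 3 per list past 1.5-fold, genes little changed or under 1 TPM in HepG2, and the 5 largest uncertain changes (short genes or coverage that did not follow). Some others are said to be chosen after their values were seen. Further members of the lists, such as ACTB, ISG15, CEBPA and FASN, are given with values and were not set by this rule either. The comparison, the 26 gene lists, the 4 marker lists and the site AGCAGTC were chosen with earlier results of these data known. Alternatives were a pseudocount of 0.1, FPKM, coverage, 2 rescalings, other TPM minimums and other fold limits. The steps were tested on simulated data. Python 3.11.15 with numpy 2.4.6, pandas 2.3.3, SciPy 1.17.1 and matplotlib 3.10.9 was used. Assays other than RNA sequencing were not analysed here. Some genes of the lists are not reported here.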

Additional observations from a re-analysis of the deposited data

Results flagged for a closer look

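For 2 genes the COP1-siRNA libraries moved past 2-fold in opposite directions in the 2 lines, and with 1 library per condition the difference between the lines was not tested. BCL2L2-PABPN1 had a log2 fold change of 1.72 in Huh7 and −1.10 in HepG2. Summed with BCL2L2 and PABPN1, which it overlaps on the same strand, the values were 0.37 and 0.05. CPT1B had 1.00 in Huh7, from 0.400 to 1.80 TPM, and −1.48 in HepG2, from 4.25 to 0.885 TPM.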

How the results depend on the processing

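No paired analysis was possible because each condition has 1 library, and for the same reason no replicate could be left out. The numbers of genes rest on the scale and the limit. Genes higher in Huh7 (83) were 364 at 1.5-fold, 249 with a pseudocount of 0.1, 38 in depth-scaled coverage, 34 with a minimum of 5 TPM, 33 in FPKM and 28 among protein-coding genes. Genes lower in Huh7 (58) were 349 at 1.5-fold, 141 with a pseudocount of 0.1, 24 in FPKM and 18 in coverage. Genes past 2-fold in Huh7 with under 1.2-fold in HepG2 (29) were 228 at 1.5-fold, 79 with a pseudocount of 0.1, 49 with no minimum TPM, 15 in coverage and 10 each in FPKM, with a minimum of 5 TPM and among protein-coding genes. They were 15 under 1.1-fold and 57 under 1.5-fold in HepG2. In coverage and FPKM, with 1 added, the same limit is harder to reach at low levels, since these values are smaller than TPM. The median-of-ratios and upper-quartile scalings kept all 3 numbers within 1.5 times. COP1 stood at −0.74 in depth-scaled coverage plus 1, and the ETS and ERK feedback list (−0.31) at −0.20 in FPKM and −0.20 in coverage. The other 180 alternatives of list medians moved by no more than 0.1. Of the named genes, MRPL57 turned to 0.16 in coverage and 0.17 as a plain ratio of coverage, and NEAT1 to 0.28 and 0.47. The plain ratio was chosen after the data were seen, and the cause was not tested. Of the 67 genes named by the rule, which passed 2-fold or 1.5-fold, 25 fell under it in depth-scaled coverage and 18 in FPKM, each with 1 added. In coverage these included MINPP1 (−0.78), RASL10B (−0.67), GLT1D1 (−0.89), RTN1 (−0.84), PCDH17 (−0.79), TRIM29 (0.70), CNN1 (0.91), OLR1 (0.93), NR0B2 (−0.41), BATF3 (0.39), SPRY4 (−0.51), SALL4 (0.16) and UBE2E2 (0.06), and in FPKM CPT1B (0.60). As a plain ratio of coverage 5 of 65 fell under it, with a pseudocount of 0.1 or median-of-ratios scaling 0, and with upper-quartile scaling 2. The difference for the 3′ UTR site stayed between −0.19 and −0.11 in 5 alternatives. The share of raised promoters with the interferon letters (12.5%) was 1.37% past 1.5-fold. With no counts in the files, the depth behind a single value is known only approximately, from its mean coverage.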
